A study of Homo sapiens with 4 samples.

Results

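Small nucleolar RNA (snoRNA) host genes are transcribed and spliced like messenger RNA genes, but their introns rather than their exons carry the functional product, the snoRNAs that guide chemical modification of ribosomal and spliceosomal RNA. The joined exons of the noncoding hosts code for little or no conserved protein, and several of these exon RNAs are known as short-lived transcripts removed by nonsense-mediated decay when they are translated. GAS5, the best studied of them, was isolated as a transcript that accumulates in growth-arrested cells, and some of these hosts begin with the pyrimidine tract (5'TOP) that ties translation of ribosomal protein mRNAs to growth signals. The hosts examined here were 10 genes (GAS5, SNHG1, SNHG3, SNHG5, SNHG6, SNHG7, SNHG8, SNHG10, SNHG11 and SNHG12) out of 36337 gene names on the array, and all probes that carry one of these names were kept, which gave 37 of 50599 probes.

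The cells were GIST-T1, a line established from a human gastrointestinal stromal tumor (GIST). One group of 2 arrays came from cells given 100 pmol of a miR-335 mimic, a synthetic double-stranded RNA that supplies the mature microRNA, and the other group of 2 arrays from cells given the same amount of a negative control RNA, with RNA taken 48 h after transfection in both. The sample titles and transfection labels name miR-335, whereas a line in the description of both mimic samples names miR-34a; the grouping followed the transfection label. Nothing in the labels says whether the 2 samples of a group were separate cultures, so the p-values measure only the spread between these samples, which may be technical. Each array had 20386 to 21214 probes whose signal was well above background, and the 2 arrays of a group differed by a median of 0.064 (mimic) and 0.063 (control) on the log2 scale. All 12 probes for KIT, ANO1, ETV1, PRKCQ and CD34, which mark this tumor type, were detected in that sense everywhere, on all 4 arrays, whereas 17 of 19 probes for markers of blood, endothelial, epithelial, muscle and nerve sheath cells were so on none. The exceptions were 1 probe each for DES (log2 change -0.25, limma adjusted p = 0.177) and EPCAM (-0.89, adjusted p = 0.287). Of the tumor markers 0 of 12 probes passed the limma test (2.62% of all tested probes did) and 4 had an unadjusted p under 0.05 (25.3%), with the lowest for 1 of 3 KIT probes (-0.33, SE 0.037, adjusted p = 0.0512).

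The sequences on which the comparisons below rest are given first, 5′ to 3′. Mature miR-335-5p is shown with its seed, bases 2 to 8, in capitals (RefSeq, GRCh38.p14, chromosome 7, plus strand).
miR-335-5p: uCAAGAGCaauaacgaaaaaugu
The probes for SNHG7 lie in different transcripts of that gene, NR_003672 and NR_024542, and are shown because only the first of them passed the test between the groups (hg19, minus strand, chr9:139619969-139620028 and chr9:139619047-139619106).
SNHG7 NR_003672 probe: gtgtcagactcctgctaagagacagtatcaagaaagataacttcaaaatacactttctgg
SNHG7 NR_024542 probe: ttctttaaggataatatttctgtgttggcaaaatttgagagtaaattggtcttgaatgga
The GAS5 probe and the probes for SNORD47 and SNORD80, snoRNAs from GAS5 introns, are shown because exon and intron signals of this gene are set side by side below (hg19, minus strand, chr1:173833049-173833108, chr1:173833507-173833566 and chr1:173833971-173834030). Capitals in the snoRNA probes mark every TGATGA and CTGA, the core letters of boxes C and D of this snoRNA class. A marked match need not be the box itself, and the SNORD47 probe holds no TGATGA. The probes start at positions 17 (SNORD47) and 11 (SNORD80) of the small RNA.
GAS5 probe: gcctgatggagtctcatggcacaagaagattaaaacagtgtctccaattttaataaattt
SNORD47 probe: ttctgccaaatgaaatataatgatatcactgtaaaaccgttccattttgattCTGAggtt
SNORD80 probe: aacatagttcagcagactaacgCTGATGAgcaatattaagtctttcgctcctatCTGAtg
An SNHG5 probe that reads across a splice is shown because its full sequence occurs in joined exons only. The bases past the join are in capitals (hg19, minus strand, between chr6:86386868-86387159).
SNHG5 joined-exon probe: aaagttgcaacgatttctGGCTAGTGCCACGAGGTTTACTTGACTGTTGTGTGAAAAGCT
The 7 letters opposite the miR-335-5p seed, GCTCTTG, occurred in 0 of the 37 host gene probes on the strand of the transcript, and in 221 (0.437%) of all 50599 probe sequences. The corresponding letters for miR-34a-5p, CACTGCC, also occurred in 0 of the 37, and in 0.435% of all probes. These counts describe only the 60 bases that each probe covers.

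All 10 hosts were detected: 35 of the 37 probes exceeded background clearly on all 4 arrays, and every gene had at least 1 of them. The other two, matched to single expressed sequence tags for SNHG1 (BM548627) and SNHG8 (BM926530), were not well above background on any array, with processed intensities of 5.25 to 6.35 and 5.46 to 6.75 units. These were not tested. Brightness also depends on the probe, as the 18 probes for SNHG5 alone ranged from 3854 to 37042 intensity units, so levels were compared between groups and not between genes.

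The first comparison asked whether the amount of host RNA differed after miR-335 transfection. By limma, 1 of the 35 tested probes, the one in SNHG7 transcript NR_003672, passed an adjusted p of 0.05 and was higher with the mimic; over all 20328 tested probes 2.62% passed in either direction. None of the 35 exceeded 1.5-fold, against 3.9% of all tested probes. At an unadjusted p under 0.05 there were 7 of 35, all higher with the mimic. Over all tested probes 25.3% were past it in either direction and 11.7% were higher. Of the 35 probes, 18 were for SNHG5 alone, so this gene weighs most in these counts. Without SNHG5 there were 7 of 17 past that limit, and with 1 probe a gene, the brightest, 5 of 10, all higher with the mimic. The groups did not overlap for 21 of 35 probes, 13 with the mimic higher and 8 with it lower; over all tested probes this held for 59.7%. The median log2 change of the host probes was 0.0063, beside -0.014 for all tested probes, and with 1 probe a gene, the brightest, it was 0.14.

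**Figure D1:**
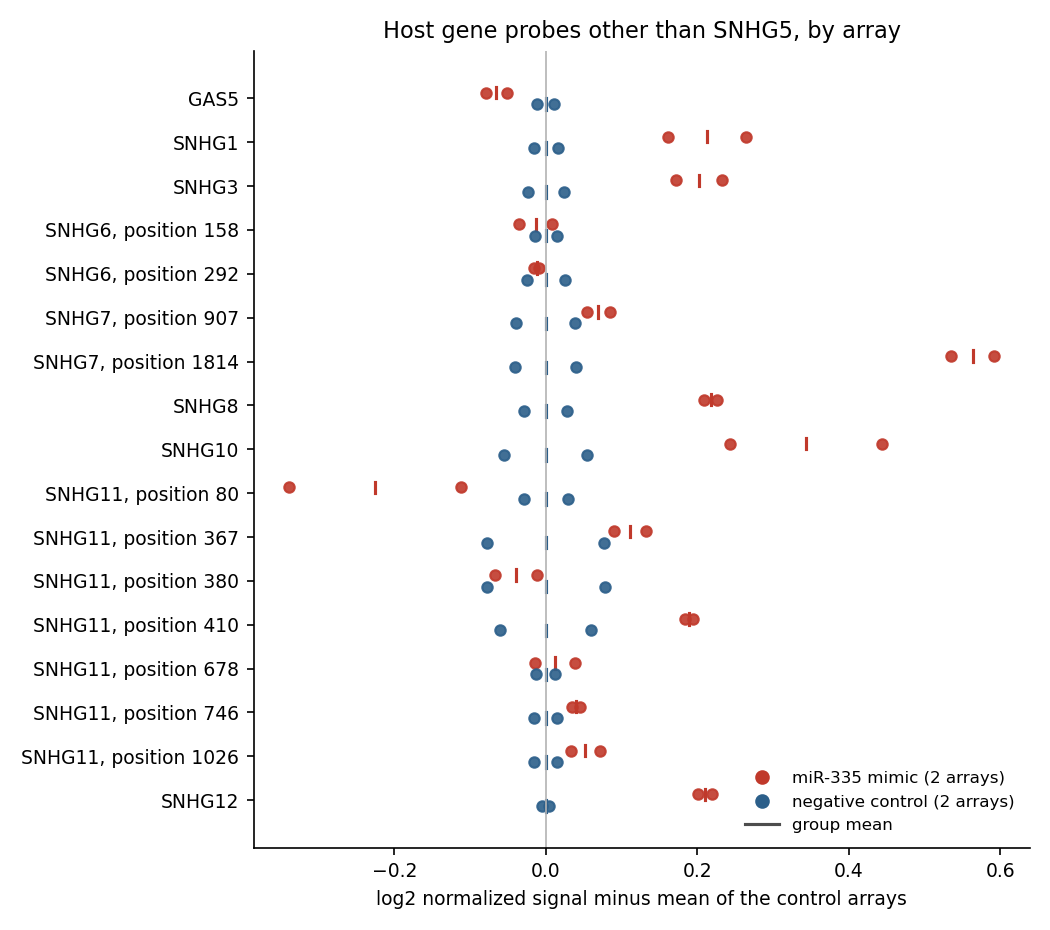
Log2 normalized signal of the 17 tested probes for 9 hosts (all but SNHG5), each minus the mean of the control arrays, with 1 point per array and a bar for each group mean. The SNHG7 probe at position 1814 (transcript NR_003672) lies farthest to the right at a mean of 0.56, and the probes for SNHG1, SNHG3, SNHG8 and SNHG12 lie near 0.2 with no overlap between the groups.

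SNHG7, the host of H/ACA snoRNAs that has been linked to proliferation in tumor cells, gave different values for its 2 probes. The probe at position 1814 of transcript NR_003672 read 80.9 and 81.2 intensity units on the mimic arrays and 54.1 and 52.0 on the control arrays. The probe at position 907 of transcripts NR_024542 and NR_024543 read 1235 and 1216 units with the mimic and 1152 and 1108 in controls. Both control arrays lay below both mimic arrays for either probe. After normalization the first probe was 1.48-fold higher with the mimic (log2 change 0.56, SE 0.051, limma adjusted p = 0.0407), and the second differed by 0.069 (SE 0.047, adjusted p = 0.425). Under normexp background correction the first probe, which is dim, changed by 0.30 (adjusted p = 0.0159). Within an array the first probe minus the second was -3.93 and -3.91 with the mimic and -4.41 and -4.41 in controls, a difference of 0.49. The exact permutation test gave a two-sided p of 0.333, the smallest that 2 arrays against 2 allow. The probe for SNORA43, a snoRNA of this gene, also lists NR_003672. Whether the SNHG7 probe at position 1814 read spliced or unspliced RNA was not tested.

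Leaving out any 1 array (either mimic or either control replicate) gave SNHG7 changes of 0.52 to 0.60, with an adjusted p between 0.150 and 0.196. Such a fit leaves a single sample in one group, which is assumed to vary like the other group, and it called 0 to 8 of all 20328 probes, so the loss of the call says little about this gene. The call was also lost without the filter on dim probes (adjusted p = 0.436), with the replicate number as a block (0.131) and in the methods' t-test (0.148).

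Among the hosts with 1 tested probe, SNHG1, SNHG3, SNHG8, SNHG10 and SNHG12 were higher with the mimic. GAS5, also with 1, was lower (log2 change -0.065) and is described below. None of them passed the threshold in limma. The 5 higher ones were grouped by that direction. SNHG1, which carries a series of C/D box snoRNAs in its introns, read 14535 and 15040 intensity units with the mimic and 12378 and 12308 in controls (log2 change 0.21, SE 0.053, adjusted p = 0.133). SNHG3, host of SNORA73A, read 1623 and 1632 units against 1380 and 1357 (0.20, SE 0.046, adjusted p = 0.118). SNHG8, host of SNORA24, read 12339 and 11757 units against 10142 and 9903 (0.22, SE 0.042, adjusted p = 0.0982). For SNHG1, SNHG3 and SNHG8 both mimic arrays were brighter than both controls.

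SNHG12 was read by a probe whose ends lie 912 bases apart in the genome (chr1:28905179-28906090), so that 852 bases between its parts are absent from the 60-base sequence. The probe as a whole thus matches spliced RNA only. It gave 1406 and 1374 units with the mimic and 1150 and 1175 in controls, a change of 0.21 (SE 0.036, adjusted p = 0.0863). SNHG10, host of the Cajal body RNA SCARNA13, was dimmer at 240 and 201 units against 173 and 162 (0.34, SE 0.092, adjusted p = 0.144). Its mimic arrays differed from each other by more than those of the other four genes, though they stayed above both controls. When limma let the variance follow signal intensity, all 5 of these probes and SNHG7 passed (6 of 35; adjusted p = 0.00327 to 0.0429), while 15.2% of all tested probes passed under that setting.

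Of the 21 probes for GAS5, SNHG5 and SNHG6, 0 passed the test in limma, and their log2 changes lay between -0.091 and 0.048 (0 had an unadjusted p under 0.05). The single GAS5 probe, near the end of the transcript at position 562, read 38979 and 38307 units with the mimic and 39107 and 39130 in controls (log2 change -0.065, SE 0.038, adjusted p = 0.363). Both mimic arrays lay just below the controls. SNHG6, host of SNORD87, was read at positions 158 and 292, and its 8 values lay between 5091 and 5352 units. After normalization the groups overlapped for both probes, and the log2 changes were -0.013 and -0.012 (adjusted p = 0.862 and 0.872).

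SNHG5, host of SNORD50A and SNORD50B, had the most probes, 18 in 3 stretches of a single transcript, NR_003038. Its log2 changes ran from -0.091 to 0.048 with a median of -0.0052 and an SD over probes of 0.038, and the lowest adjusted p was 0.279. The 5 probes starting at positions 96 to 109 had a median of -0.038, the 3 at 188 to 194 a median of -0.0084, and the 10 at 262 to 349 a median of -0.0020. These probes overlap within a stretch and were read from the same RNA, so they are not replicates. The joined-exon probe printed above, with 18 bases before and 42 bases after an intron of 232 bases, read 37042 and 36366 units with the mimic and 34463 and 35402 in controls (0.024, SE 0.037, adjusted p = 0.720). Its 42 bases after the join lie in 1 exon, and whether unspliced RNA adds to its signal was not tested. Another probe, at position 263, has only its last base past the same join and changed by -0.064 (SE 0.041, adjusted p = 0.400). Both values lay within the range of the probes for single exons.

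SNHG11 was read by 7 probes along NR_003239 and varied more between probes, with an SD of 0.13. The first probe, at position 80, read 4111 and 3387 units with the mimic and 4272 and 4171 in controls, a change of -0.23 (SE 0.094, adjusted p = 0.251). The mimic arrays themselves differed by 0.23, the largest difference between replicates among the 35 probes. The other six, from position 367 onward, changed by -0.039 to 0.19, of which the highest was at position 410 (SE 0.057, adjusted p = 0.167). Within an array, position 80 minus position 1026 was 1.06 and 0.87 with the mimic and 1.25 and 1.23 in controls (exact permutation p = 0.333, two-sided, the smallest possible).

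**Figure D2:**
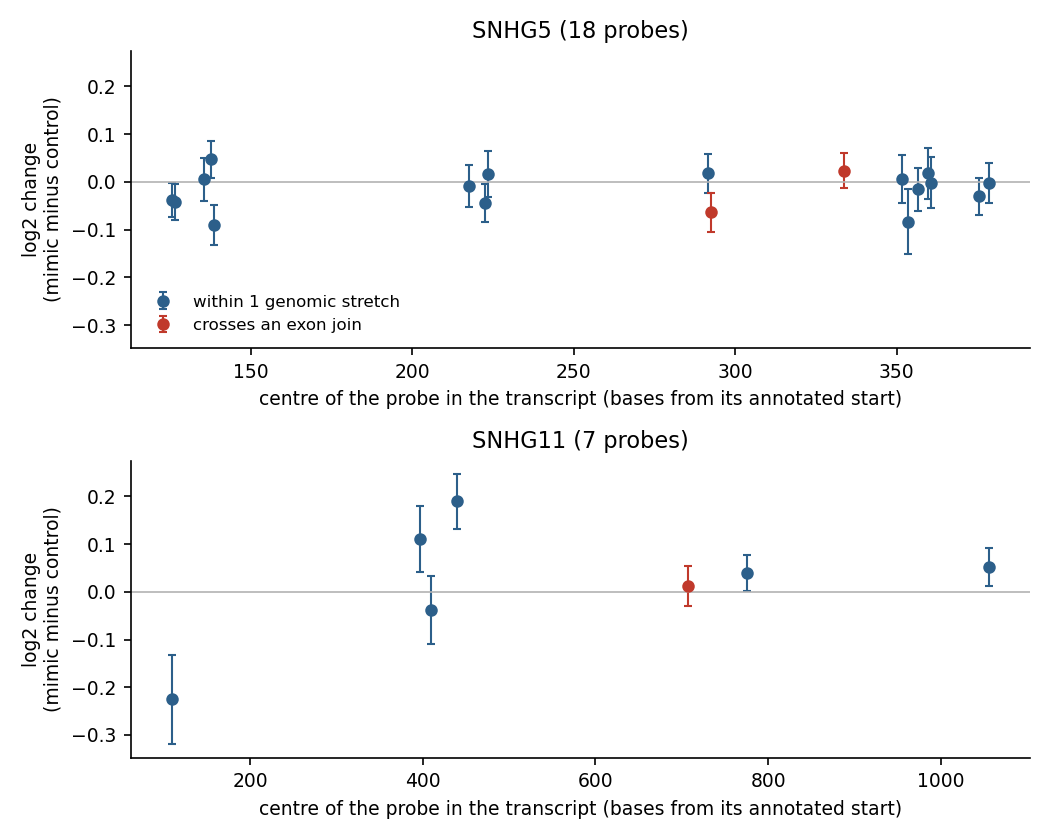
Log2 change (mimic minus control, with the standard error from limma) of each SNHG5 and SNHG11 probe against the position of its centre in the transcript in bases; red marks probes that cross an exon join. SNHG5 stays between -0.091 and 0.048 over its whole measured length, whereas the SNHG11 probe nearest the start lies at -0.23 and the remaining probes between -0.039 and 0.19.

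The direction of the small changes depended on how arrays were scaled. The 7 spike-in probes used, which report RNA added in a known amount, were higher on the mimic arrays by a median of 0.19 (0.12 to 0.26) after scaling to the 75th percentile. Scaling to them moved the median of all tested probes from -0.014 to -0.20. Under that scaling 21 of 35 host probes, 18 of the 35 being for SNHG5, were called lower, against 44.6% of all tested probes. A single probe (SNHG7, NR_003672, at 0.38) was called higher. The 5 genes named above then had changes of 0.015 (SNHG3) to 0.16 (SNHG10), and GAS5 lay at -0.25 (adjusted p = 0.0219). Each scaling subtracts a single value per array, so it cannot move differences between host genes on the same array. SNHG1, SNHG3, SNHG8, SNHG10 and SNHG12 lay above GAS5, SNHG5 and SNHG6 under both scalings, but this was fixed in advance and tests nothing. The genes were also grouped by these same changes.

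**Figure D3:**
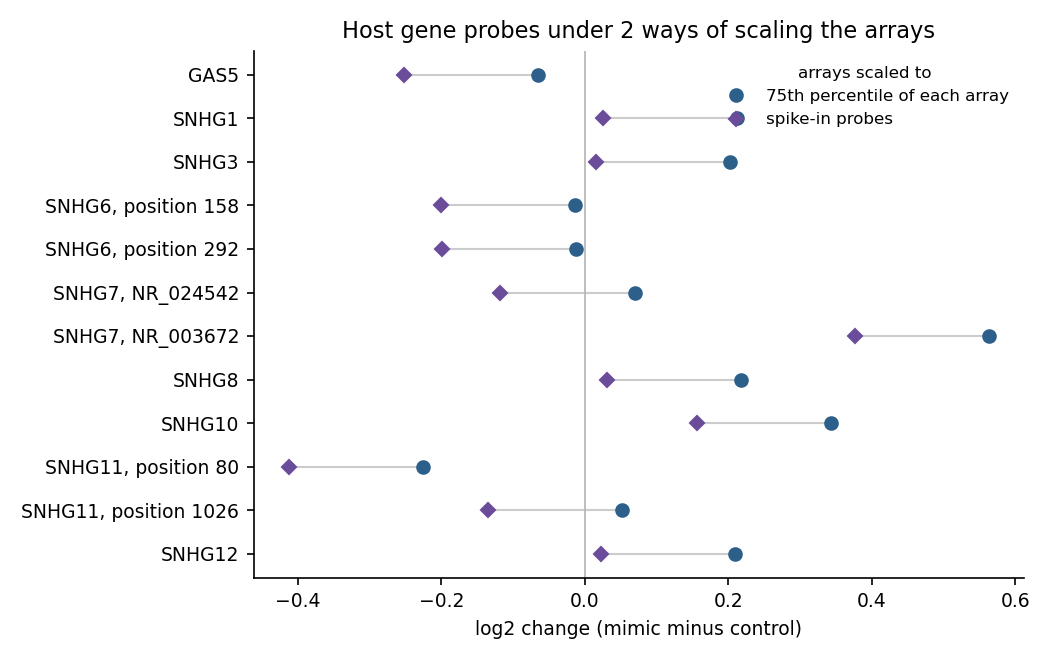
Log2 change (mimic minus control) of 12 host gene probes with arrays scaled to the 75th percentile of each array (circles) or to the spike-in probes (diamonds). Every probe moved down by 0.19 between the scalings; SNHG1, SNHG3, SNHG8 and SNHG12 then lay near 0, and SNHG7 NR_003672 remained at 0.38.

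The second comparison set each host beside the small RNAs carried in its introns. The array held 32 probes for 30 of these gene names. Signals well above background were found for 20 of these probes on all 4 arrays and for 9 on none, and 21 were tested. The tested probe not detected on all 4, SNORD30, passed the filter through the mimic arrays only, where it was higher. In limma 0 of 21 passed, against the 2.62% above, and 8 had an unadjusted p under 0.05 (6 higher, 2 lower), against 25.3% of all tested probes in either direction and 11.7% higher. The changes of the 21 ran from -0.27 to 0.61 with a median of 0.21. Under normexp background correction 5 passed (SNORD26, SNORD47, SNORD80, SNORD87 and SNORA61), where 7.62% of all tested probes did, but the median of the 21 was 0.11. Several dim probes moved by over 1.5 times there: SNORD80 to 0.32, SNORD87 to 0.36, SNORD76 to 0.20, SNORA17 to 0.23, SNORD25 to 0.085, SNORD29 to 0.11, SNORD99 to 0.086, SNORA73A to -0.15 and the RNU105A probe of lower p to -0.18. A probe within a snoRNA also lies in the intron of the host, so the mature small RNA and unspliced host RNA cannot be told apart, and 10 of the 32 probes list a transcript in common with a probe for the host.

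The tested probes in GAS5 introns and the probe in its exon had changes of opposite sign, none of them past the threshold. SNORD47 read 269 and 268 intensity units with the mimic and 165 and 198 in controls (log2 change 0.52, SE 0.098, adjusted p = 0.0944). SNORD80 read 124 and 99.9 units against 75.2 and 72.1 (0.55, SE 0.11, adjusted p = 0.100), and SNORD76 read 103 and 102 against 70.1 and 91.8 (0.30, SE 0.14, adjusted p = 0.284). The probes for all 3 tested snoRNAs of GAS5 lay higher on both mimic arrays than on either control, while the host's exon probe lay slightly lower. Groups without overlap made up 59.7% of all tested probes. Within an array SNORD47 minus GAS5 differed by 0.59 between the groups, SNORD80 minus GAS5 by 0.61 and SNORD76 minus GAS5 by 0.37; for each the exact permutation test gave p = 0.333, two-sided, the smallest possible. The probes for SNORD47 and SNORD80 and the GAS5 exon probe all list the cDNA BC038733. The remaining 5 GAS5 snoRNA probes (SNORD44, SNORD74, SNORD75, SNORD77 and SNORD79) were well above background on at most 1 array.

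SNHG6 and its snoRNA were arranged likewise. Its C/D box snoRNA SNORD87 read 104 and 96.5 units with the mimic and 54.9 and 74.0 in controls (0.61, SE 0.16, adjusted p = 0.139), beside -0.012 for the SNHG6 exon probe at position 292. The within-array difference was 0.62 (exact permutation p = 0.333, two-sided). For SNHG5 the snoRNA was not informative: SNORD50B, which lies at chr6:86387307-86387366 inside an intron of 302 bases between SNHG5 probes, read 82.7 and 89.7 units against 116.8 and 68.0 (-0.097, SE 0.31, adjusted p = 0.864), with control arrays on both sides of the mimic arrays.

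SNHG3 and its small RNAs had changes of opposite sign, none of them past the threshold. SNORA73A, an H/ACA box RNA, read 92.1 and 93.9 units with the mimic and 102 and 111 in controls (-0.25, SE 0.058, adjusted p = 0.123). The 2 probes for RNU105A, an older name of SNORA73B, changed by -0.27 (SE 0.045, adjusted p = 0.0798) and -0.11 (SE 0.19, adjusted p = 0.737). SNORA73A and SNORA73B are close in sequence, so these probes may share signal. Within an array SNORA73A minus SNHG3 differed by -0.45 between the groups (exact permutation p = 0.333, two-sided).

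The small RNA probes of SNHG1 and SNHG12 that are named here lay above 0 like their hosts, except SNORD31. Of the SNHG1 introns SNORD26 read 916 and 929 units with the mimic and 717 and 696 in controls (0.34, SE 0.051, adjusted p = 0.0729). SNORD22, SNORD25, SNORD27 and SNORD29 changed by 0.13 to 0.21 and SNORD31 by -0.019, with adjusted p between 0.261 and 0.919. SNORD30, named here after its values were seen, was well above background on the mimic arrays only. In SNHG12, SNORA61 read 278 and 278 units against 207 and 207 (0.38, SE 0.042, adjusted p = 0.0504; over the alternatives 0.00878 to 0.496). SNORD99, which lies between the ends of the SNHG12 joined-exon probe, changed by 0.23 (adjusted p = 0.301) and SNORA16A by 0.035 (adjusted p = 0.705). Within-array differences from the host were taken here for SNORD26, SNORA61 and SNORD99 only, and these were smaller than those for GAS5 and SNHG6. SNORD26 minus SNHG1 differed by 0.12 between the groups, SNORA61 minus SNHG12 by 0.17 and SNORD99 minus SNHG12 by 0.024. The exact permutation test gave p = 0.333, two-sided, for SNORD26 and SNORA61, and a larger p for SNORD99.

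SNORA24 of SNHG8 changed by 0.27 (SE 0.074, adjusted p = 0.149) beside 0.22 for its host. SNORA17 of SNHG7 changed by 0.45 (SE 0.19, adjusted p = 0.249), and SNORA43, whose probe lists the SNHG7 transcript NR_003672, was not well above background on any array. SCARNA13 changed by 0.022 (SE 0.096, adjusted p = 0.902) beside 0.34 for SNHG10, although its probe lists the same transcript, NR_003138. No probe for the SNHG11 snoRNAs SNORA39 and SNORA60 was well above background. Over all hosts, 10 of the 21 tested small RNA probes had a larger log2 change than the median of their host's probes and 11 a smaller one. The 10 include SNORD30, which was tested only because of its signal on the mimic arrays.

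**Figure D4:**
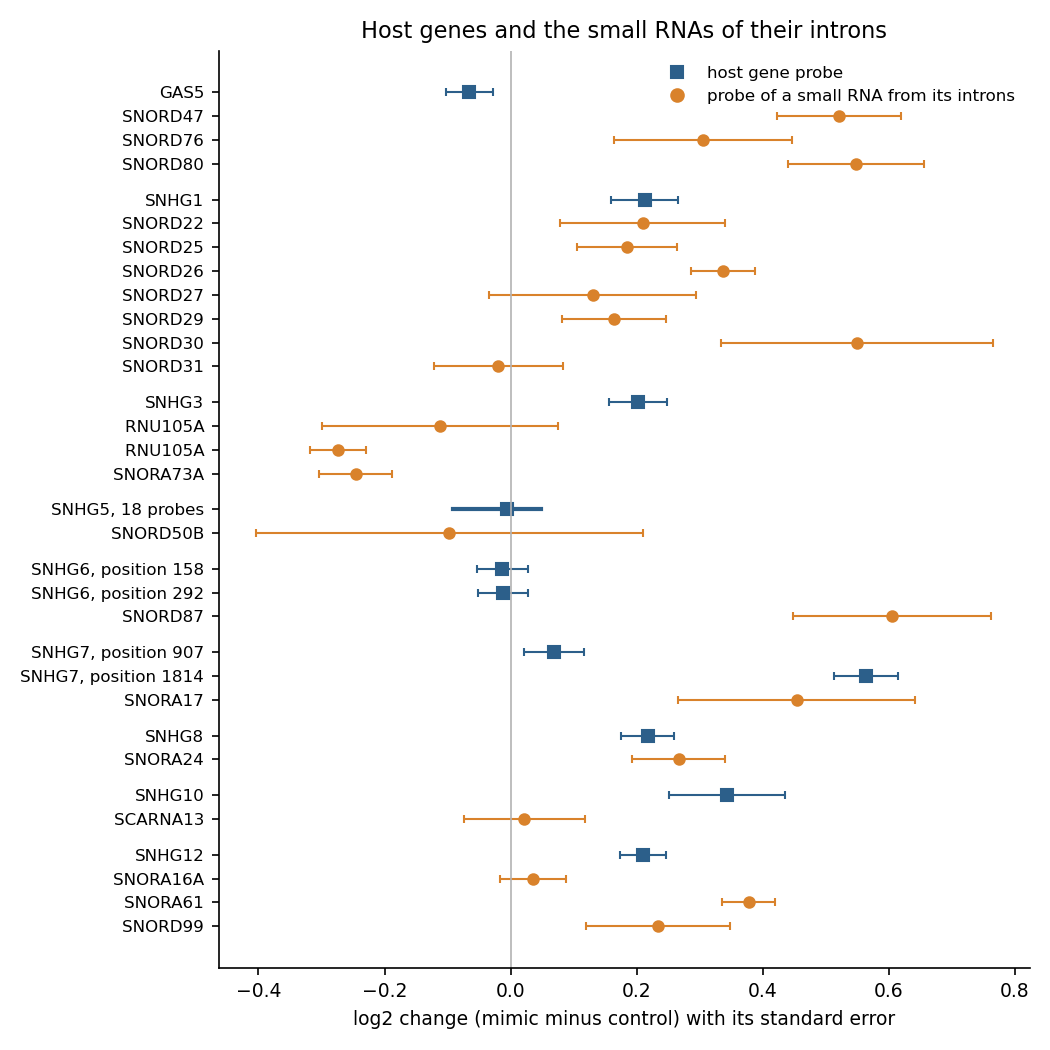
Log2 change (mimic minus control) with its standard error for host gene probes (squares) and for the small RNAs of their introns (circles), grouped by host; for SNHG5 the bar spans its 18 probes and the square is their median. The GAS5 and SNHG6 exons lie at -0.065 and near -0.01 while SNORD47, SNORD80 and SNORD87 lie at 0.52 to 0.61, and SNHG3 at 0.20 lies above its 3 small RNA probes.

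Of the probes for genes around these hosts, 1 passed the test. The counts at an unadjusted p under 0.05 below stand against 25.3% of all tested probes. Other noncoding hosts had 8 tested probes for 5 names, of which 0 passed in limma and 1 had an unadjusted p under 0.05. All 8 changes, 4 of them from probes for LINC00338 (SNHG20), were above 0 (0.040 to 0.20), but under spike-in scaling 7 of 8 lay below 0 (-0.15 to 0.013) and 0 were called. The highest was DANCR (SNHG13 in the files), a noncoding RNA first linked to blocking differentiation, at 0.20 (SE 0.039, adjusted p = 0.0982). Of the 11 probes for 7 names in this list, the 2 for SNHG4 were well above background on no array. The bright ZNFX1-AS1 probe lacked a value on control replicate 1 and was not tested. Its normalized values were 7.34 and 7.37 with the mimic and 7.38 on the other control array. The protein-coding hosts, mostly ribosomal and nucleolar protein genes, had 76 tested probes with 0 passing, 6 at an unadjusted p under 0.05 and a median of -0.034; the lowest p belonged to PPAN, a ribosome biogenesis factor (0.29, SE 0.041, adjusted p = 0.0690).

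Proteins that assemble or bind snoRNAs (22 tested probes) had 0 passing, 7 at an unadjusted p under 0.05 and a median of 0.055, with the lowest p for NHP2, a core protein of H/ACA particles (0.19, SE 0.043, adjusted p = 0.121). Nonsense-mediated decay factors (36 probes) had 0 passing, 11 at an unadjusted p under 0.05 and a median of 0.020; the lowest p belonged to 1 of 9 probes for SMG1, the kinase that phosphorylates UPF1 (0.34, SE 0.061, adjusted p = 0.0899). The SMG1 probes ran from -0.28 to 0.51, with the brightest at 0.048. Among the 11 decay factor probes, a DHX34 probe (0.38) and a UPF2 probe (0.65) were not well above background on all 4 arrays. By their intensities both met the filter through the mimic arrays, where they were higher. The 10 probes for mRNAs known as targets of this decay had 0 passing, 4 at an unadjusted p under 0.05 and a median of -0.014, and the lowest p belonged to 1 of 4 probes for ATF3, a stress-induced transcription factor (-0.33, SE 0.054, adjusted p = 0.0809). The ATF3 probes ran from -0.33 to 0.24, with the brightest at 0.0012. Of these target probes 5 lay above and 5 below 0.

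Of 30 probes for 5'TOP mRNAs other than those of ribosomal proteins, 1 passed, an HNRNPA1 probe matched to transcript ENST00000546500, which was higher with the mimic at 498 and 472 units against 338 and 344 (0.46, SE 0.037, adjusted p = 0.0368). The other two HNRNPA1 probes changed by 0.082 and -0.026, and the median over the list was 0.00088. Regulators of 5'TOP translation (18 probes) had 0 passing, 2 at an unadjusted p under 0.05 and a median of 0.0045; the lowest p belonged to 1 of 2 probes for TIA1, which binds such mRNAs (0.19, SE 0.057, adjusted p = 0.162). Under spike-in scaling 19 of 30, 8 of 18, 59 of 76, 14 of 36, 6 of 22 and 5 of 10 probes passed in the 5'TOP, regulator, protein-coding host, decay factor, snoRNA-binding and decay target lists, where 47.2% of all tested probes passed in either direction.

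The start sites of the hosts were compared as sequences only. A C followed by at least 4 pyrimidines, starting within 10 bases of the annotated start on the strand of the gene, was present for 5 of the 9 hosts with an entry (SNHG5, SNHG7, SNHG8, SNHG11 and SNHG12) and for 33.5% of 35116 promoters of the same length (RefSeq, GRCh38.p14). SNHG5 and SNHG12 are printed because both hold the tract, in capitals, while their log2 changes were -0.0052 and 0.21 (minus strand, chr6:85678709-85678748 and chr1:28581849-28581888).
SNHG5 start: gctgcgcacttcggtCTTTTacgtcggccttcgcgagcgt
SNHG12 start: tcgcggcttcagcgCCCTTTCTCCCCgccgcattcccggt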

How the data were processed

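One-color Agilent arrays of GIST-T1 cells were analysed, 2 with miR-335 mimic and 2 with control RNA. The authors deposited spot intensity values from Feature Extraction 10.7.3.1 (per the file headers), background-subtracted within each array. Spots flagged as outliers were left out, spots of a probe were averaged, and the log2 processed intensity minus the 75th percentile of the array was the normalized value. Probes well above background (on at least 0.5 of usable spots) on both arrays of a group, with a value on all 4, were tested with limma 3.58.1 in R 4.3.3 and adjusted by Benjamini-Hochberg over all 20328. All 4 arrays were on 1 slide and had 1 scan; the number of arrays limits the precision. The series value table that the authors deposited holds the same intensity, rounded; 0 of its columns matched no sample. The members and gene lists were chosen with earlier results of these data known. Named were every host gene probe by value or range, small RNAs detected on all 4 arrays, and in other lists the called probe or that of lowest p. List names absent from the array were matched through RefSeq synonyms. After the fits, the procedure was checked on data simulated from the means and spread of these same arrays, with known changes added. Figures used matplotlib 3.10.9. Alternatives are given in the closing section. Genomic placement in exons was not analysed beyond the probe coordinates (hg19).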

Additional observations from a re-analysis of the deposited data

How the results depend on the processing

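Of the 35 host gene probes, 2 were called higher under normexp background correction and 6 with an intensity trend; 0 were called higher without the filter on dim probes, with the replicate block or in the methods' t-test, where 4 had an unadjusted p under 0.05. Leaving out 1 array at a time gave 0 calls in either direction each time, medians of -0.011 to 0.025 and 0 to 1 probes over 1.5-fold. Spike-in scaling gave 21 called lower and a median of -0.18, and 1 probe per gene gave a median of 0.14. Several changes turned in sign. Under scaling to detected probes SNHG6 was 0.0077 and 0.0088 and SNORD31 0.0014, and under normexp SNORD31 was 0.0074. Under spike-in scaling SNHG7 NR_024542 was -0.12, SNHG11 at position 1026 -0.13, SNORD25 -0.0029, SNORD27 -0.057, SNORD29 -0.023, SCARNA13 -0.17 and SNORA16A -0.15. Leaving out 1 array at a time, SNHG6 ranged from -0.035 to 0.0088 (position 158) and -0.037 to 0.013 (position 292), SNORD31 from -0.12 to 0.082, SNORD50B from -0.50 to 0.30, SNORD27 from -0.079 to 0.34, the first RNU105A probe from -0.36 to 0.13, SCARNA13 from -0.066 to 0.11 and SNORA16A from -0.0025 to 0.073. The replicate numbers did not pair the samples (the replicate differences of the groups correlated at 0.035), and the block changed no other call of a host gene probe. Slide and scan as a block could not be run with 1 of each. Quantile normalization, the series value table, the filter on all 4 arrays, robust eBayes and detection on all usable spots left 1 host gene probe called. The causes were not tested.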
